A study of Mus musculus with 6 samples.

Results

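High mobility group genes encode small, abundant chromatin proteins. Transcripts of 7 of them, Hmgb1, Hmgb2, Hmgb3, Hmgn1, Hmgn2, Hmgn3 and Hmga1, were read in sorted CD8+ T cells with and without Id2, a protein that binds E protein transcription factors and keeps them off DNA. The genes were taken by symbol and matched to the NCBI gene numbers of the expression tables. All 7 had a row, among 16749 gene numbers listed in at least 1 library. The cells were sorted from tissue labelled iLN, an abbreviation left unexpanded, of tumor-bearing C57BL/6 mice given the platinum compound oxaliplatin, which crosslinks DNA. There were 6 libraries. Of these 3 were Id2 knockout (genotype Cd4creId2f/f) and 3 were WT (genotype Id2f/f, floxed Id2 with no Cre). Cd4-driven Cre acts in developing and mature T cells rather than in CD8+ cells alone, and since only the knockout mice carried it, effects of Cre and of losing Id2 cannot be told apart. The labels do not say whether the 3 samples of a group came from separate animals, so the spread behind each p-value may be technical.

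The members fall into 3 families with different ways of binding chromatin. HMGB proteins carry a pair of HMG boxes that bend DNA and an acidic tail, and HMGB1 released by dying or activated cells also acts as a danger signal. HMGN proteins bind the nucleosome core itself and counter the compaction of chromatin by linker histones. HMGA proteins bind the minor groove of AT-rich DNA through short AT-hooks. Several of these genes are known to be transcribed more in dividing lymphocytes than in resting ones.

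The libraries held between 7699181 and 8495123 expected counts, the reads that the authors' counting program assigned to genes. Levels are FPKM, counts divided by transcript length and library size. Fold changes are knockout over WT from edgeR's quasi-likelihood test on the expected counts, with Benjamini-Hochberg adjustment over 10890 genes and a threshold of 0.05. Id2 itself had 1.67, 2.64 and 2.12 FPKM in the knockout libraries and 371, 147 and 149 in the WT libraries (log2 fold change -6.72, SE 0.47, adjusted p = 8.47e-05). It was -6.08 without WT replicate 1. The cells carried CD8 T cell transcripts in both groups, with Cd8a at 214 ± 17.8 FPKM in knockout and 212 ± 10.9 in WT (SD, n = 3 each) and Cd4 at no more than 2.97 FPKM. Of the other CD4 T cell markers, Foxp3 was at 3.06 to 4.21 FPKM in knockout and 3.38 to 3.65 in WT. Cd40lg was at 3.44 to 5.46 and 3.37 to 5.74, and Zbtb7b at no more than 0.80. B cell transcripts were uneven: the summed FPKM of 12 markers was 488, 2022 and 439 in the knockout libraries and 648, 2122 and 2502 in the WT libraries.

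Of the 7 members 5 were lower in knockout cells, Hmgb2, Hmgb3, Hmga1, Hmgn2 and Hmgb1, from the largest fall to the smallest. Hmgn1 and Hmgn3 did not pass the threshold. None was higher by edgeR, DESeq2 or limma. None was higher at an unadjusted p under 0.05 either. Among all genes tested, 8.77% were lower and 3.14% higher. The median log2 fold change was -0.997 over the 7 members and 0.01 over all genes. Together the members had 819, 882 and 738 FPKM in the knockout libraries, against 1403, 1513 and 1689 FPKM in the WT libraries. In bulk RNA, fewer cells that express a gene and less of its RNA per cell cannot be told apart.

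**Figure D1:**
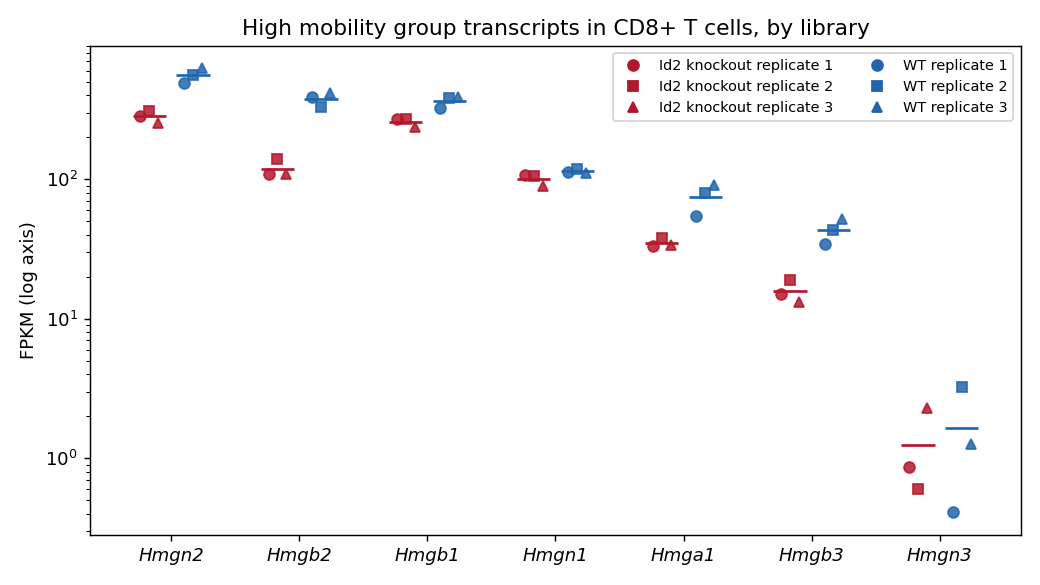
FPKM (log axis) of each high mobility group gene in the 3 Id2 knockout libraries (red, left) and the 3 WT libraries (blue, right), ordered by the WT mean; symbols mark replicates and horizontal lines the group means. The groups do not overlap for any gene but Hmgn3, and the gap is widest for Hmgb2 (means 119 and 378 FPKM) and narrow for Hmgn1 (100.4 and 113.8 FPKM). Of all genes tested, 16.8% had every knockout library under every WT library, and 15.3% had every knockout library over every WT library.

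The HMGB family held the 2 largest falls among the 7 members, in Hmgb2 and Hmgb3, and a small one in Hmgb1. Hmgb2 (chr8:57511843-57515999 on GRCm38, plus strand, 5 exons), the HMGB protein most tied to dividing and developing cells, had 109, 139 and 108 FPKM in the knockout libraries and 387, 330 and 418 FPKM in the WT libraries. The highest knockout library lay well under the lowest WT library. Its log2 fold change was -1.69 (SE 0.13, adjusted p = 0.000113, edgeR), or 3.23-fold lower. In rank of mean FPKM among all genes tested, Hmgb2 stood at 687 in knockout and at 219 in WT.

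Hmgb3 (chrX:71555917-71560673, plus strand), a relative best known from blood stem and progenitor cells, was the lowest of the 3 HMGB members in FPKM. It had 15.2, 19.1 and 13.3 FPKM in the knockout libraries and 34.7, 43.3 and 52.3 FPKM in the WT libraries. The groups did not overlap, and the log2 fold change was -1.47 (SE 0.17, adjusted p = 0.000490), 2.77-fold lower. The WT libraries varied by 20.3% (SD over mean) and the knockout libraries by 18.8%.

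Hmgb1 (chr5:149046702-149053057, minus strand) is the most widely expressed member of the family. It had 270.4, 270.3 and 238 FPKM in the knockout libraries, against 324, 380 and 391 FPKM in the WT libraries. The groups were separate but close, 1.42-fold apart (log2 fold change -0.50, SE 0.10, adjusted p = 0.0110). Without knockout replicate 3, its lowest library, the fold change was -0.44 and the call ended (adjusted p = 0.0891). The range of adjusted p over all alternatives was 0.000118 to 0.0891.

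With the uneven falls, the balance of the HMGB members differed between the groups. In WT cells Hmgb2 and Hmgb1 were at like levels, 378 ± 44.6 and 365 ± 35.7 FPKM, a difference smaller than their spread. In knockout cells Hmgb1 stood above Hmgb2 in all 3 libraries, at 259 ± 18.9 against 119 ± 17.5 FPKM. The ratio of Hmgb2 to Hmgb1 within a library was 0.403, 0.514 and 0.456 in knockout and 1.19, 0.868 and 1.07 in WT. The ratio of Hmgb3 to Hmgb1 was likewise lower in every knockout library, with a mean of 0.0609 ± 0.00851 in knockout and 0.118 ± 0.0139 in WT. A two-sided exact permutation test gave p = 0.1 for each of these ratios, the smallest value that 3 libraries against 3 allow, so neither difference could pass 0.05. Adjusted over the 3 ratios tested here, with that of Hmgn2 to Hmgn1, it remained 0.1.

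**Figure D2:**
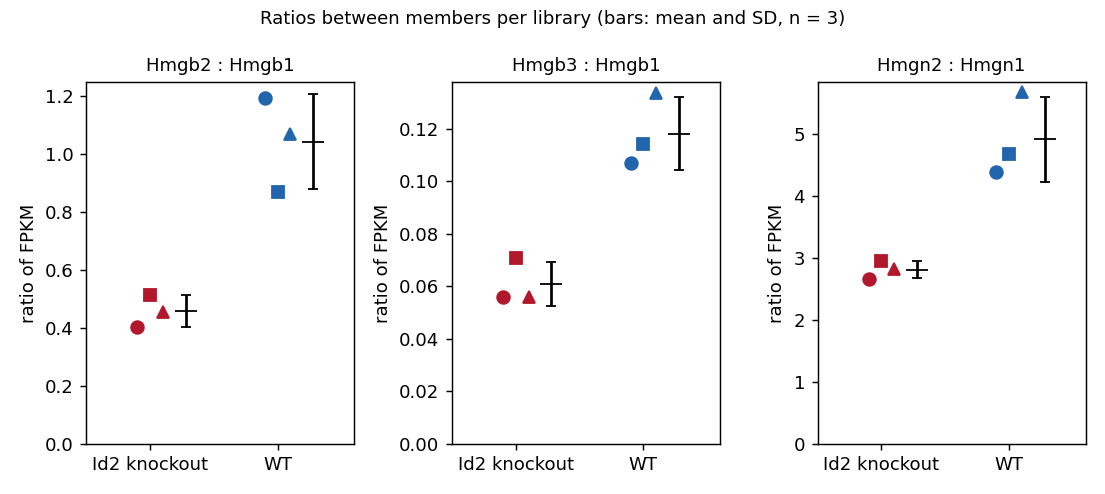
Ratio of FPKM within each library for Hmgb2 to Hmgb1, Hmgb3 to Hmgb1 and Hmgn2 to Hmgn1, in Id2 knockout (red, left) and WT (blue, right) libraries, with the mean and SD of each group (n = 3) beside the points. All 3 knockout libraries lie under all 3 WT libraries in each panel, for example 0.403 to 0.514 against 0.868 to 1.19 for Hmgb2 to Hmgb1.

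The promoters of the 3 HMGB genes, which fell together by different amounts, are given as the 250 bases before the RefSeq start site (GRCm38.p6), 5′ to 3′ on the gene's strand. Capitals mark CCAAT, the letters of the CCAAT box read by the factor NF-Y, and TTTGAA, the core letters of the cell cycle homology region (CHR), each on either strand.
Hmgb2, chr8:57511593-57511842, plus strand: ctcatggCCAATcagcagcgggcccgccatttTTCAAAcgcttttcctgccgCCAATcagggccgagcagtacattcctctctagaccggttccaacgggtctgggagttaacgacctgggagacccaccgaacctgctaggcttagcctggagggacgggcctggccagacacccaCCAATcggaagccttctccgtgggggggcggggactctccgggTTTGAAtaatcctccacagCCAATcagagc
Hmgb3, chrX:71555667-71555916, plus strand: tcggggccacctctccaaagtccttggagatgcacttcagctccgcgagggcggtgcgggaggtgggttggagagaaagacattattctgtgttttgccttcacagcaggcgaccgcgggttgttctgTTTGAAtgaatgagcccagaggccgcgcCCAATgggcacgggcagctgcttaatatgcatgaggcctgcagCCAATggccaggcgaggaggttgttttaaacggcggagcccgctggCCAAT
Hmgb1, chr5:149053058-149053307, minus strand: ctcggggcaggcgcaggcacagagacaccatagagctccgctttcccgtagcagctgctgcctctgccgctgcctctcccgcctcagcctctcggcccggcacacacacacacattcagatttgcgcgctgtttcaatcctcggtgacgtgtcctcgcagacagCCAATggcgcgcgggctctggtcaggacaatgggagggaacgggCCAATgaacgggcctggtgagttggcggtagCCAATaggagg
Hmgb2 held 4 CCAAT matches, with first bases at -243, -198, -73 and -11 from the start, and TTTGAA letters at -218 and -30. Hmgb3 held 3 CCAAT matches at -94, -51 and -5 and TTTGAA letters at -122. Hmgb1 held 3 CCAAT matches, at -86, -42 and -11, and no TTTGAA letters in this window. Over the window from 250 bases before to 50 after the start, 3.56% of 27025 RefSeq promoters had at least 3 CCAAT matches, and 6.11% of the 8638 promoters of tested genes did. At least 1 TTTGAA match stood in 18.1% of all promoters and in 12.7% of those of tested genes. The E box letters CANNTG, the core that E proteins bind, occurred once in Hmgb1 and once in Hmgb3, as CAGCTG in both. They were not in the Hmgb2 window. At least 1 CANNTG match stood in 72.1% of all promoters and in 63.5% of those of tested genes. For CAGCTG the shares were 16.1% and 14.0%. The forms CAGCTG and CACGTG are each a case of CANNTG, so their matches overlap. Core letters of sites of the factor E2F were also searched for, in more than 1 form. They had 0 matches in the windows of all 6 members with a promoter. At least 1 match stood in 8.71% and 4.76% of the promoters of tested genes, by form. The E box form CAGGTG likewise had 0 matches in these windows, against 16.9% of the promoters of tested genes. Matches of all these kinds are letters in a window and say nothing of what binds there.

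In the HMGN family the values of Hmgn2 and Hmgn1 parted. Hmgn2 (chr4:133964739-133967991, minus strand), the most abundant of the 7 transcripts in both groups, had 284, 310.0 and 253 FPKM in the knockout libraries and 489.5, 558 and 626 FPKM in the WT libraries. Every knockout library lay under every WT library. The log2 fold change was -0.997 (SE 0.11, adjusted p = 0.000509), 2.0-fold lower. Hmgn1 (chr16:96121588-96127725, minus strand), which binds the nucleosome in the same manner, had 106, 105 and 89.7 FPKM in the knockout libraries, against 112, 119 and 110.2 FPKM in the WT libraries. These groups did not overlap either, which held for 16.8% of all genes tested in that direction, but they were near each other. The log2 fold change was -0.19 (SE 0.10) and did not pass (adjusted p = 0.246, and 0.221 to 0.642 over the alternatives).

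The ratio of Hmgn2 to Hmgn1 was 2.66, 2.95 and 2.82 in the knockout libraries and 4.38, 4.68 and 5.68 in the WT libraries. The 2 groups of ratios were apart, with the exact permutation p at its floor of 0.1. Hmgn3 (chr9:83109942-83147358, minus strand) was near the limit of detection, with 6, 4 and 16 counts in the knockout libraries and 3, 25 and 9 counts in the WT libraries. Its groups overlapped, and its log2 fold change of -0.39 had an SE of 0.72 (adjusted p = 0.765). That value turned to 0.59 without WT replicate 2, so no direction can be given at this depth.

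The promoter windows of Hmgn2 and Hmgn1 are shown because the 2 transcripts differed in size of change, with capitals as above.
Hmgn2, chr4:133967992-133968241, minus strand: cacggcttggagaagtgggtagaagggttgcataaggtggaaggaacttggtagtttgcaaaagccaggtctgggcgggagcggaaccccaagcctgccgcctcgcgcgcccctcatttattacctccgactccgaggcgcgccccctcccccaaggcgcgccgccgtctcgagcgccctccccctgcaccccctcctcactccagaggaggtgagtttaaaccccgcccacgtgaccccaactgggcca
Hmgn1, chr16:96127726-96127975, minus strand: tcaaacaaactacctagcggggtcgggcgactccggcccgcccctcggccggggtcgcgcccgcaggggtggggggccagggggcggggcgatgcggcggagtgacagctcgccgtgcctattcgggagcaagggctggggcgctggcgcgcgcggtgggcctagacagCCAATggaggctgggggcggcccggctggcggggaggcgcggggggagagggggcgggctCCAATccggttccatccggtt
Hmgn1 held 2 CCAAT matches, at -81 and -21. At least 2 CCAAT matches stood in 12.2% of all promoters and in 16.3% of those of tested genes. In Hmgn2 the single CCAAT match began at -3 and ran across the start, so it is not capitalised. Hmgn2 held 2 CANNTG matches, at -21 and -11, the first of them CACGTG. That form was found in 7.24% of all promoters and in 10.8% of those of tested genes. At least 2 CANNTG matches stood in 39.6% of all promoters and in 28.3% of those of tested genes. Hmgn1 had no CANNTG match in its window.

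Hmga1 (chr17:27556574-27563672, plus strand), the AT-hook protein of this set, had 33.3, 37.9 and 34.1 FPKM in the knockout libraries. The WT libraries had 54.6, 79.9 and 90.8 FPKM. The knockout libraries were tight (7.07% SD over mean) and the WT libraries were spread (24.7%), with replicate 1 the lowest. The groups did not overlap, and the log2 fold change was -1.11 (SE 0.16, adjusted p = 0.00150), 2.16-fold lower. Its promoter window held no CCAAT or TTTGAA letters and 2 CANNTG matches, at -62 and -25, the first of them CAGCTG. At least 2 CANNTG matches stood in 28.3% of the promoters of tested genes, and CAGCTG in 14.0%.

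As shares of the summed FPKM of the members, the make-up shifted away from Hmgb2 and toward Hmgb1 and Hmgn1. Hmgb2 made up 14.6% ± 1.22 of the sum in knockout and 24.7% ± 2.91 in WT. Hmgb1 made up 32.0% ± 1.21 in knockout and 23.8% ± 1.13 in WT, and Hmgn1 12.4% ± 0.570 in knockout and 7.46% ± 0.813 in WT. Hmgn2 was the largest share in every library, at 34.7% ± 0.455 in knockout and 36.3% ± 1.19 in WT (SD, n = 3). Shares are bound to each other, since 1 cannot fall without another rising. In level, the knockout order was Hmgn2 above Hmgb1 (282 ± 28.8 and 259 ± 18.9 FPKM, a difference within their spread), then Hmgb2, Hmgn1, Hmga1, Hmgb3 and Hmgn3. Hmgb2 and Hmgn1 were also close there, at 119 ± 17.5 and 100.4 ± 9.36 FPKM.

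**Figure D3:**
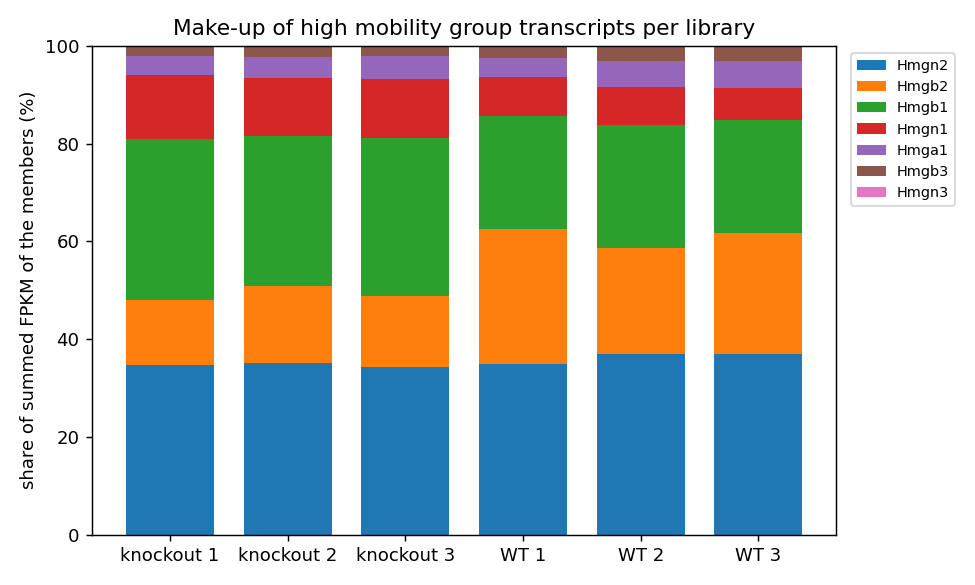
Share of each gene in the summed FPKM of the 7 high mobility group genes, for the 3 Id2 knockout libraries (left) and the 3 WT libraries (right). The Hmgb2 band is 13.3% to 15.8% in knockout and 21.8% to 27.6% in WT, and the Hmgb1 band is 30.7% to 33.0% in knockout and 23.1% to 25.1% in WT.

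Cell cycle markers moved with these genes. All 20 listed markers fell, with a median log2 fold change of -2.56, among them the mitotic cyclin gene Ccnb2 (7.24 ± 2.33 FPKM in knockout and 66.9 ± 14.8 in WT), Ccnb1 (log2 fold change -3.34), the mitotic kinase gene Aurkb (-3.37) and the microtubule regulator gene Stmn1 (-2.19). Their summed FPKM was 458, 658 and 447 in the knockout libraries and 1646, 1497 and 2092 in the WT libraries. Within each group the order of the libraries in this sum was also their order in Hmgb2. Replicate 2 was the highest of the knockout libraries and the lowest of the WT libraries. Hmgb1, Hmgb3, Hmgn2 and Hmga1 were instead lowest in replicate 1 of the WT libraries, as was the B cell marker sum. The falls of Hmgb2 and Hmgn2 (-1.69 and -0.997) were smaller than the median of the markers. They lay within the range of the markers, which ran from -0.68 (Tyms) to -3.37 (Aurkb). The part of cell division in the members' falls was not tested. Of 11 B cell markers tested 0 passed in any of edgeR, DESeq2 and limma, with 0 at an unadjusted p under 0.05. Their median log2 fold change was also negative, at -0.80, with wide spread: the sum was 983 ± 900 FPKM in knockout and 1757 ± 979 in WT. Without knockout replicate 2, 9 of them were lower. With the B cell marker level added to the fit the same number of members, 5, was lower, with log2 fold changes of -1.64 for Hmgb2, -1.28 for Hmgb3, -0.92 for Hmga1, -0.91 for Hmgn2 and -0.45 for Hmgb1. Dendritic cell markers were low, with sums of 3.63 to 6.73 FPKM in knockout and 23.6 to 26.6 in WT. Of the 4 tested 3 fell, Itgax, Batf3 and Zbtb46, and Batf3 was at 0 in 1 knockout library. Xcr1 did not (2.81 FPKM in knockout and 2.97 in WT on average, log2 fold change -0.10, adjusted p = 0.836 by edgeR). Too low to be tested were Flt3, at no more than 0.52 FPKM, and Siglech, at 0.39 to 0.70 in knockout and 0.24 to 0.30 in WT. Of 4 plasma cell markers tested 1 fell, Jchain (log2 fold change -1.48, adjusted p = 0.00874), while their summed FPKM was 78.4 to 96.5 in knockout and 85.5 to 109 in WT. Of 2 stromal markers tested 1 fell, Sparc, at 0.33, 0 and 0.05 FPKM in knockout and 1.12, 4.08 and 2.45 in WT (log2 fold change -4.25, adjusted p = 0.00568). The stromal sums were 42.6 to 46.8 in knockout and 36.3 to 45.6 in WT, mostly Pecam1 (44.9 and 39.5 FPKM on average). None of the 4 erythroid markers reached 1 FPKM in at least 3 libraries, so none was tested. Their sums were 8.97, 0 and 12.3 FPKM in the knockout libraries and 0, 0.34 and 0.2 in the WT libraries. Which cells these marker transcripts came from was not tested. Apart from the fit with the B cell level, the part of RNA from any such other cells in the members' values was not tested.

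**Figure D4:**
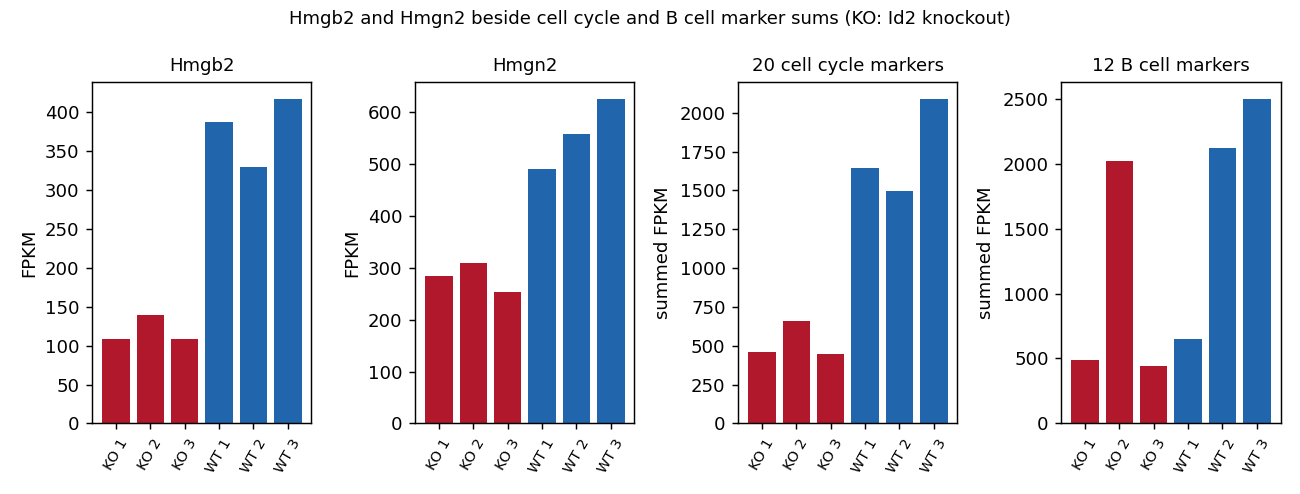
FPKM of Hmgb2 and Hmgn2 and summed FPKM of 20 cell cycle markers and 12 B cell markers in each library, Id2 knockout (KO, red) left of WT (blue); bars start at 0. Hmgb2 and the cell cycle sum are highest in knockout replicate 2 within the knockout group (139 and 658). Within the WT group both are lowest in WT replicate 2 (330 and 1497). Hmgn2 and the B cell sum are also highest in knockout replicate 2 of the knockout group, but lowest in WT replicate 1 of the WT group.

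Of 8 further genes of the high mobility group nomenclature, 5 were tested and 1 passed. Hmgn5, an X-linked HMGN gene, had 12.2, 16.0 and 11.4 FPKM in knockout and 20.9, 24.5 and 19.95 FPKM in WT, with no overlap. Its log2 fold change was -0.74 (SE 0.15, adjusted p = 0.0106), and without knockout replicate 3 it did not pass (-0.64, adjusted p = 0.0637). Hmgxb3 and Hmgxb4 had log2 fold changes of 0.20 and -0.23 (adjusted p = 0.350 and 0.509). Hmga2, the other HMGA gene, was too low to be tested, between 0.50 and 0.58 FPKM in knockout and between 0.61 and 0.86 in WT.

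Proteins that carry an HMG box but serve as transcription factors, enzymes or remodelling subunits went both ways. Of 15 tested, 3 were higher and 1 lower, around a median of 0.20 on the log2 scale. The higher ones were Tox, a factor of T cell exhaustion (log2 fold change 0.58, adjusted p = 0.0169), Kmt2d, a histone H3 methyltransferase gene (0.47, 0.0209), and Tcf7, which encodes the T cell factor TCF-1 (0.64, 0.0375) and was named after its value was seen. Tcf7 had 312, 211 and 304 FPKM in knockout and 191, 182 and 152 in WT. The lower one was Wdhd1, a replication protein gene (-0.72, adjusted p = 0.0239). None of the 15 passed without knockout replicate 3 or without WT replicate 3 by edgeR, and 1 did without knockout replicate 1. Tcf7 also missed the threshold with the B cell covariate (0.39, adjusted p = 0.0555) and without WT replicate 2 (0.65, adjusted p = 0.0896), and Wdhd1 by limma (-0.63, adjusted p = 0.0595).

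**Figure D5:**
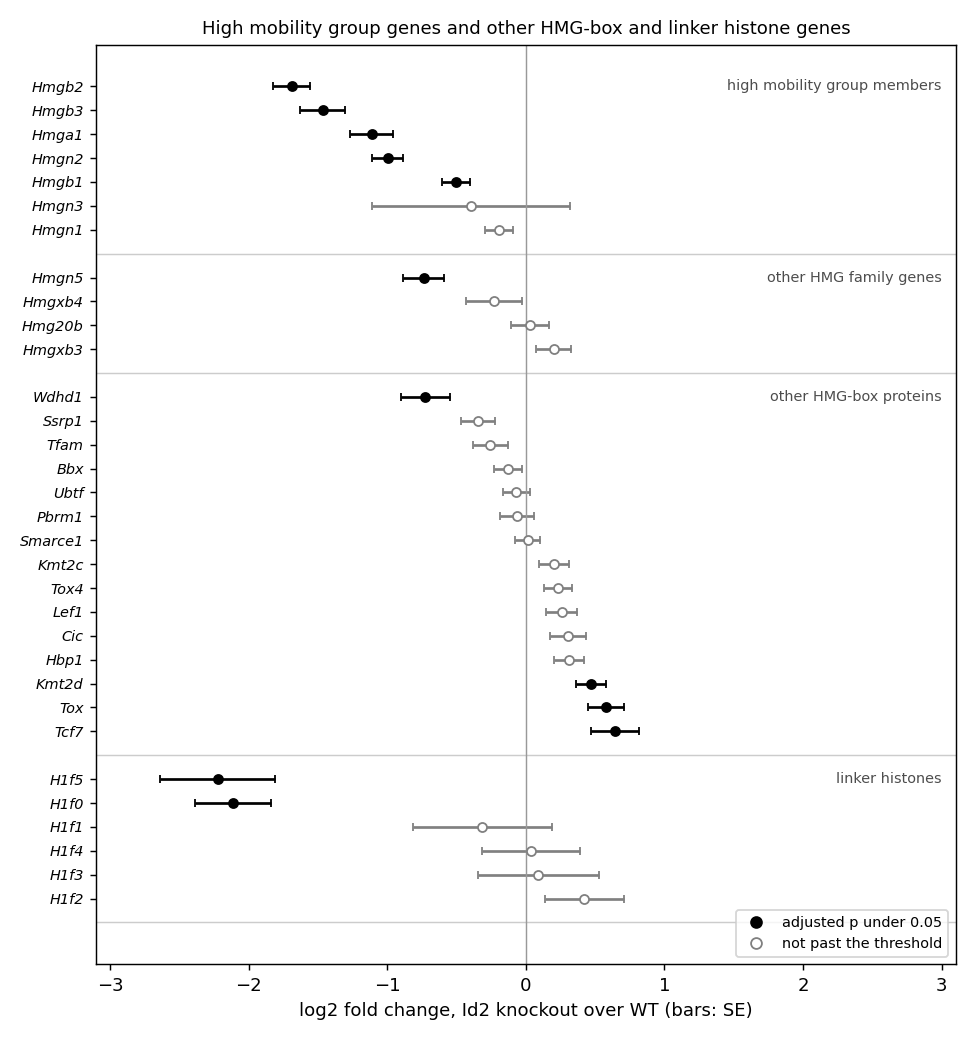
Log2 fold change, Id2 knockout over WT, with its SE for the tested high mobility group members, 4 of the 5 tested other HMG family genes, and the tested other HMG-box protein and linker histone genes; filled points have an edgeR adjusted p under 0.05. The members lie between -1.69 (Hmgb2) and -0.19 (Hmgn1), all left of 0, Hmgn3 with an SE of 0.72 and a value right of 0 (0.59) without WT replicate 2, while the other HMG-box genes lie on both sides.

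Linker histones, which HMGN proteins displace from nucleosomes, changed in 2 of 6 genes tested. H1f0, the replacement linker histone, had 2.76, 2.47 and 2.84 FPKM in knockout and 8.61, 9.36 and 16.9 FPKM in WT (log2 fold change -2.11, SE 0.27, adjusted p = 0.000907). H1f5 had 2.43, 1.18 and 1.84 FPKM in knockout and 8.17, 5.17 and 12.1 in WT (-2.22, SE 0.42, adjusted p = 0.00722). H1f2, the most abundant, stood at 52.2 ± 13.3 FPKM in knockout and 38.5 ± 14.6 in WT (adjusted p = 0.380), and H1f1 at 0.887 ± 0.355 and 1.10 ± 0.176 (adjusted p = 0.734). Linker histone genes are close copies of one another, so the division of reads between them is uncertain.

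Among histone variants, chaperones and other nucleosome-binding proteins, 12 of 23 genes tested fell. None rose in any of edgeR, DESeq2 and limma, and 0 were higher at an unadjusted p under 0.05. Their median log2 fold change was -0.43. Asf1b, a chaperone of newly made histones in dividing cells, had 18.4 ± 6.84 FPKM in knockout and 87.3 ± 21.1 in WT (-2.26, adjusted p = 0.000410). Chaf1a, the large subunit of the replication-coupled chaperone CAF-1, changed by -1.98 on the log2 scale (adjusted p = 0.000570). The variant gene H2az1 had 504 ± 28.9 FPKM in knockout and 951 ± 94.4 in WT (-0.93, adjusted p = 0.000449), against -0.997 for Hmgn2. Anp32e, which removes that variant from chromatin, changed by -0.80 on the log2 scale (adjusted p = 0.000609).

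HMGB2 is a subunit of the SET complex, which granzyme A attacks in target cells. Of 5 other genes of that complex none passed in edgeR, DESeq2 or limma, while Set and Anp32a, 2 of the 5, did at an unadjusted p under 0.05. The granzyme gene Gzma fell, at 34.2 ± 27.4 FPKM in knockout and 893 ± 369 in WT (log2 fold change -4.75, adjusted p = 0.000449). It was -5.61 without knockout replicate 2. The log2 fold change was -0.34 for Set (adjusted p = 0.116), -0.33 for Nme1 (0.199) and -0.52 for Anp32a (0.0985). Anp32a passed with the B cell covariate (-0.74, adjusted p = 0.0160). Among 10 genes for receptors or binding partners of released HMGB1, 5 were tested and Havcr2 (TIM-3), an inhibitory receptor, fell to 2.53 ± 1.64 FPKM in knockout against 44.3 ± 16.5 in WT (-4.16, adjusted p = 0.000302). Without knockout replicate 2 it was -4.79, and Siglecg (-1.98, adjusted p = 0.0264) and Cd24a (-0.9999, adjusted p = 0.0272) also passed. The chemokine receptor gene Cxcr4 stood at 54.7 ± 6.89 FPKM in knockout and 56.8 ± 25.3 in WT (adjusted p = 0.918), and Tlr4 was at no more than 0.11 FPKM.

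For each member that passed, the 3 genes most like it were taken as those with the highest Pearson correlation of log2 CPM over the 6 libraries, among 5907 genes with a mean of at least 10 FPKM. These r values are a description and rest mainly on the difference between the groups. For Hmgb2 they were Anxa2 (r = 0.9996), Atp5j (0.999) and Cmc2 (0.999). For Hmgb3 they were Sec61a1 (0.999), Ndufa11 (0.996) and Pmf1 (0.996), and for Hmgn2 Cdk2 (0.998), Lage3 (0.997) and Pmf1 (0.996). For Hmgb1 they were Rpn1 (0.996), Zmpste24 (0.995) and Crip2 (0.995), and for Hmga1 Nelfe (0.997), Casp1 (0.996) and Haus1 (0.996). Pmf1, a kinetochore gene with 31.5 FPKM in knockout and 63.9 in WT on average, was the gene on more than 1 list.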

How the data were processed

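RNA of the sorted CD8+ T cells was sequenced in 6 libraries of 7699181 to 8495123 expected counts. Each deposited table holds expected counts, that is, reads assigned to genes with ambiguous reads shared out. It also holds FPKM values, made by the authors from those reads for length and depth, per the file headers. CASAVA, Bowtie2, RSEM and the mm10 build are named in the submitters' processing notes. Versions and strand use are not given in the sources used here. A gene without a row in a library was taken as 0. Gene numbers were paired with symbols through the RefSeq table (16707 of 16749).

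Expected counts were rounded and tested with edgeR 4.0.16 (TMM, two-sided) on the 10890 genes with at least 1 FPKM in at least 3 of 6 libraries. All 7 members passed this filter. DESeq2 1.42.0, limma 3.58.1 on log2(FPKM + pseudocount), a replicate block, a B cell covariate and fits without 1 library were alternatives. SE is the log2 fold change over the square root of F. Members and lists were chosen with earlier results of these data known. Genes named were the members, Id2, up to 4 of each list with the smallest p (2 per direction where both occurred), the 3 most like each called member, and the most abundant markers, of which not all are given here. Some genes of the lists are counted but not otherwise reported here. Cd8a, Tyms, Zbtb7b, Zbtb46, Flt3, Siglech, Tlr4, Hmga2 and Tcf7 fall outside this rule and were added with their values known. Promoters are RefSeq's (GRCm38.p6) and were matched for 6 of 7 members. For Hmgb1 and Hmga1, which have 2 promoters in the table, the one at the outer end of the gene was used. Replicate numbers did not pair the samples. No libraries were duplicates (pairs within a group gave chi-square over degrees of freedom between 5.62 and 18.6).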

Additional observations from a re-analysis of the deposited data

How the results depend on the processing

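The direction and call of Hmgb2, Hmgb3, Hmgn2 and Hmga1 were the same under all 15 alternatives run, with log2 fold changes of -1.79 to -1.62, -1.59 to -1.28, -1.05 to -0.91 and -1.27 to -0.92. Hmgb1 kept its call in 14 of 15. The number of members past the threshold was 5 in every alternative except the fit without knockout replicate 3 (4). With the replicate number as a block it was also 5, and the block changed the count of the SET complex list to 2, with Anp32a (-0.53, adjusted p = 0.0426 by edgeR) added to Gzma. Same-numbered libraries did not deviate together (correlations of 0.118, 0.075 and -0.0303), so the numbers were not taken as pairs. The B cell covariate also gave 2 for the SET complex list, with the same gene added. In fits without 1 library, the number of genes past the threshold lay between 601 and 1562 (1297 in all libraries), that of other HMG family genes between 0 and 2, that of other HMG-box genes between 0 and 4, that of HMGB1 receptor genes between 1 and 3, and that of cell cycle markers at 19 or 20. Signs turned only among genes that did not pass: Hmgn3 (0.59 without WT replicate 2, the highest of a range that began at -1.18 without knockout replicate 3), Cd24a (0.0023 with the B cell covariate) and Cxcr4 (0.051 and 0.054 by limma with pseudocounts of 1 and 0.1, 0.030 with the replicate block, 0.21 with the B cell covariate, 0.012 without knockout replicate 1, and 0.24 and 0.0048 without WT replicates 2 and 3, against a lowest value of -0.34 without WT replicate 1). The cause of these shifts was not tested. An FPKM minimum of 5 left Hmgn3 untested. Depth limits Hmgn3, whose libraries held 3 to 25 counts.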

Other observations

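Hmgb1 has many processed copies in the mouse genome. RefSeq names 13 pseudogenes of Hmgb1, 2 of Hmgn2, 1 of Hmgb3 and 0 of Hmgb2. Of these 1, Hmgb1-rs17, had a row in the tables. Its expected counts were 23.0, 43.1 and 20.7 in the knockout libraries and 14.3, 19.5 and 29.05 in the WT libraries, against at least 5311 for Hmgb1 itself. The expected counts of Hmgb2 and Hmgb3 were not whole numbers in any of the 6 libraries, and those of Hmgb1 were whole in 1 of 6, so some of their reads were divided among genes. A count was taken as whole where both deposited decimals were 0. Those of Hmgn1, Hmgn2, Hmgn3 and Hmga1 were whole in all 6. The effect of the divided reads on the HMGB values was not tested.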
